A study of Homo sapiens with 2 samples.

Results

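The APOBEC3 cytidine deaminases were followed across the transfection of a microRNA oligo into a human epithelial cell line. The 4 genes described are APOBEC3B, APOBEC3C, APOBEC3F and APOBEC3G, and they were taken with every probe set whose only gene symbol in the platform annotation is one of them. This gave 6 probe sets, of 41091 with a single symbol, and 4 genes of 19775. The cells were hTERT-RPE1, a retinal pigment epithelial line immortalised with telomerase, grown with serum and hygromycin B. The control array holds RNA of cells given a control oligo, and the other array RNA of cells given a miR-129-3p oligo, which the labels describe as overexpression of that microRNA. Both cultures received a lipid transfection reagent and were harvested at 72 h. The oligo dose, the sequence of the control oligo and the strand design of the miR-129-3p oligo are not given in the sources used here. Each group is 1 Affymetrix array of 1 line, so no value has a replicate error, no p-value is given, and every difference compares these 2 arrays, not the conditions.

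APOBEC3 enzymes turn cytosine into uracil, mainly in single-stranded DNA, and are known for mutating the reverse transcripts of retroviruses and for blocking retrotransposons. The genes lie side by side in one cluster and arose by duplication, so their transcripts are similar in sequence. Each protein carries 1 or 2 zinc-binding deaminase domains. APOBEC3G and APOBEC3F are the members best known for restricting HIV that lacks its Vif protein, and are described as interferon-inducible in several cell types. APOBEC3B is largely nuclear, is known as a source of mutations in tumours, and its transcription has been tied to the cell cycle and to NF-kappaB. APOBEC3C has a single deaminase domain and is broadly expressed.

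The microRNA that distinguishes the groups has a pair of mature 3p forms in RefSeq, both shown because the labels do not say which was transfected. They are written 5′ to 3′, with the seed (bases 2 to 8), the part that pairs with target RNAs, in capitals. On build GRCh38.p14 the first lies in MIR129-1 at chr7:128207920-128207941 and the other in MIR129-2 at chr11:43581450-43581471, both on the plus strand. Counted from the 5′ end, they differ by U20C alone, outside the seed, so that either form carries the same seed.
hsa-miR-129-1-3p: aAGCCCUUaccccaaaaaguau
hsa-miR-129-2-3p: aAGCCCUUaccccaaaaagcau

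Over all probe sets the arrays were alike in level, with median signals of 96.5 (control) and 98.0 (miR-129-3p). A signal is the deposited linear intensity of a probe set, and differences are miR-129-3p minus control on the log2(signal + 16) scale, which understates differences of dim probe sets. A probe set that reached a signal of 100 on either array is said to be above the filter, and a call is a difference of at least 2-fold among them. Among 6179 genes with several probe sets above the filter, the differences of the probe sets of a gene had a pooled SD of 0.37, a spread within these arrays that leaves out the spread between cultures. Of the 14 markers fixed for retinal pigment epithelium, 6 were above the filter. These were MITF, OTX2, KRT8, KRT18, PMEL (control 114, miR-129-3p 229) and TTR, which reached 110 on the miR-129-3p array only. The only call among the 6 was MITF, which was lower, at -1.26 (control 2470, miR-129-3p 1020). Its other probe set above the filter was at -0.77, within the 2-fold limit. Of all 12754 genes above the filter, 4.56% were lower by at least 2-fold. The defining visual cycle genes RPE65, RLBP1 and LRAT and the pigment genes TYR and TYRP1 stayed under 100 on both arrays.

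The 4 genes did not move together. APOBEC3B had a lower signal with miR-129-3p, APOBEC3F and APOBEC3G each had 1 probe set with a higher signal and 1 with nearly the same signal on both arrays, and APOBEC3C was nearly the same on both. By gene, each represented by its probe set of highest mean log2 level, 1 of 4 members was at least 2-fold higher, against 7.83% of all 12754 genes above the filter. Likewise 1 of 4 was at least 2-fold lower, against 4.56% of all genes. By probe set, 5 of the 6 were above the filter. Of these 5, 2 were at least 2-fold higher, against 7.55% of 23707 probe sets above the filter, and 1 was lower, against 4.80%. The 2 higher ones passed the filter only through the miR-129-3p array, so their number is a description only: a probe set that passes in that way necessarily reads higher there. The 1 higher gene, APOBEC3F, is among them. Among all 1550 probe sets of that kind, 38.9% were at least 2-fold higher, against 5.36% of those that already passed in control.

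**Figure D1:**
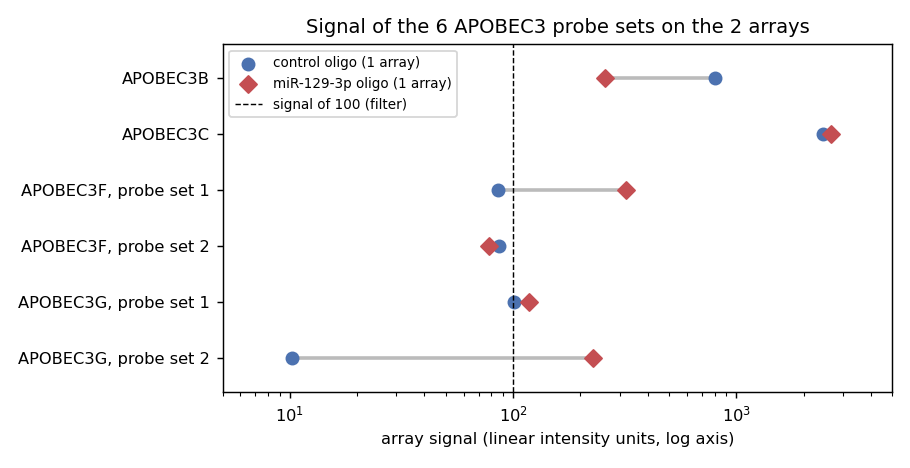
Signals of the 6 APOBEC3 probe sets on the control array (circles) and the miR-129-3p array (diamonds), in linear intensity units on a log axis, joined by a line for each probe set, with the filter of 100 dashed. Probe set 1 of a gene is the one with the higher mean log2 level. APOBEC3B goes from 803 down to 259, and probe set 2 of APOBEC3G from 10.3 up to 228.

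APOBEC3B, the nuclear member, had the 1 lower signal of the group. Its only probe set with a single symbol read 803 on the control array and 259 on the miR-129-3p array. Both signals were above the filter, so this difference does not rest on a reading near the floor of the array. The signal was 3.10-fold lower, a log2 difference of -1.57, which is 4.27 times the pooled SD between probe sets. Among the 12754 genes above the filter it ranked 226 from the most negative difference, with 1.76% of genes below it. The array signal cannot tell fewer cells with the transcript from less of it per cell, here or in the results that follow. No second probe set was at hand to set beside this one. Its name ends in _s_at, the Affymetrix suffix for probes shared by several transcripts, and how far other APOBEC3 transcripts contribute to it was not tested.

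APOBEC3C, the single-domain member, differed least among the brightest probe sets of the 4 genes. Its probe set read 2452 (control) and 2660 (miR-129-3p), both well over the filter. The log2 difference was 0.12, or 1.08-fold, smaller than the pooled SD of 0.37. Of all genes above the filter, 57.0% had a difference below that of APOBEC3C, so it lay near the middle of the array, whose median difference was 0.03. The name of this probe set ends in _x_at, the suffix for probe sets in which some probes can bind other sequences.

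APOBEC3F, a restriction factor with a pair of deaminase domains, was read by 2 probe sets that gave different answers. The brighter one read 85.4 on the control array and 322 on the miR-129-3p array. Its log2 difference was 1.74. Since the control reading was under the filter, the signal is given as at least 3.22-fold higher, taking 100 as the control value. The other probe set read 86.2 and 77.7, under the filter on both arrays, with a log2 difference of -0.13. Only the first of them was thus higher with miR-129-3p. The mean of the 2 differences was 0.81, under the 2-fold limit. The dimmer probe set also ends in _x_at, and which transcripts each of them reads was not tested.

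APOBEC3G, the member studied most in HIV restriction, was also read by 2 probe sets that disagreed. One of its probe sets read 10.3 on the control array and 228 on the other. Its control signal was near the bottom of the scale, whose lowest value was 1, and its miR-129-3p signal passed the filter. Against a control value of 100 the signal was at least 2.28-fold higher. The log2 difference of 3.22 rests on the low control reading, and was 1.07 with signals under 100 set to 100. The other probe set of APOBEC3G read 101 and 118. That is a log2 difference of 0.19, or 1.17-fold, again smaller than the pooled SD. Both signals lay close to the filter of 100 and to the array medians of 96.5 (control) and 98.0 (miR-129-3p). Whether this probe set detects the transcript in these cells was not tested. This nearly level probe set had the higher mean log2 signal and therefore stood for APOBEC3G in the counts by gene. With the probe set that has the highest signal on either array in its place, a choice made after the data were seen, APOBEC3G was at 3.22. By that choice 2 of 4 members were at least 2-fold higher, against 8.08% of 12770 genes above the filter. Both members passed the filter only through the miR-129-3p array, so this count too is a description only.

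With signals under 100 set to 100, the 2 APOBEC3G differences were 1.07 and 0.19, a span of 0.88, and the 2 APOBEC3F differences were 1.54 and 0, a span of 1.54. Of 6179 genes with several probe sets above the filter, 11.8% had a span at least as large as that of APOBEC3G measured in the same way. For the span of APOBEC3F the share was 3.04%, though APOBEC3F is not among the 6179, since its dimmer probe set is under the filter. On the signals as deposited the APOBEC3G span was 3.02, and 0.42% of the 6179 genes had a span at least as large. Most of that APOBEC3G span came from the control reading of 10.3. Neither of the APOBEC3G probe sets carries the _s_at or _x_at suffix.

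**Figure D2:**
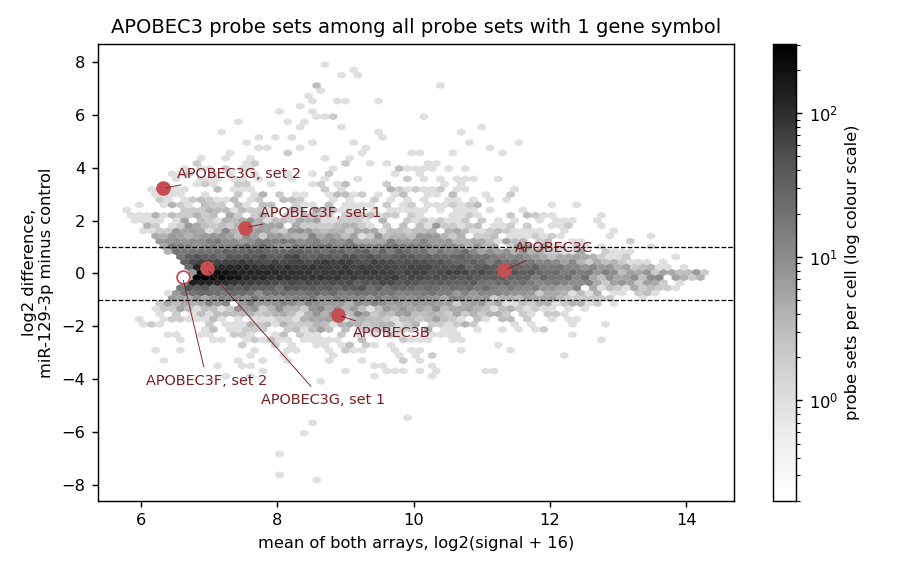
Log2 difference (miR-129-3p minus control) of probe sets with 1 gene symbol against their mean log2(signal + 16) over both arrays; grey cells count all 23707 above the filter and red points are the APOBEC3 probe sets (the open one is under the filter). Dashed lines mark 2-fold; probe set 2 of APOBEC3G (3.22) and probe set 1 of APOBEC3F (1.74) lie above them, APOBEC3B (-1.57) below.

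For each member, the genes with the most similar pair of readings were named by the distance between their log2 values on the 2 arrays, over 2 points that any gene of like brightness can share. Nearest to APOBEC3B were MIAT, ACAT2 and MRAS, at distances of 0.04 to 0.09 and with differences of -1.52 to -1.47. Nearest to APOBEC3C were DDIT4, FYTTD1 and MRPL47. PDE7B, DGAT2 and HPSE were nearest to APOBEC3F, with differences of 1.68 to 1.82. IDO1, MUCL3 and FERMT1 were nearest to the brighter probe set of APOBEC3G. These are descriptions of 2 arrays, in which the brightness of a probe also depends on its sequence.

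The members were then set beside the rest of their family. Of the 6 other APOBEC genes listed, 3 had a probe set with a single symbol and only APOBEC3D was above the filter. APOBEC3D, which lies between APOBEC3C and APOBEC3F in the cluster, read 131 and 132 on the control and miR-129-3p arrays, which differ by 0.01 in log2. APOBEC1, the editor of apolipoprotein B mRNA, read 45.3 and 48.6, and APOBEC4 read 19.0 and 11.3, all under the filter. APOBEC2, APOBEC3A and APOBEC3H were not analysed here.

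Along chromosome 22, with gene order taken from GRCh38.p14, the lower signal of APOBEC3B was not shared by the measured APOBEC3 genes that follow it. APOBEC3B at -1.57 is followed by APOBEC3C at 0.12 and APOBEC3D at 0.01, and then by APOBEC3F and APOBEC3G with their split probe sets. Of the 6 protein-coding genes on each side of the cluster, 11 were above the filter, with a median of -0.02, against 0.03 over all genes. By at least 2-fold, 1 of the 11 was higher and 2 were lower, against 7.83% and 4.56% of all genes above the filter. PDGFB, a growth factor chain that lies beyond CBX7, read 787 against 45.3 (at least 7.87-fold lower with 100 in place of the dim signal, and log2 differences of -3.71 and, on a further probe set, -3.50). SUN2, a nuclear envelope protein, was at -1.52. GTPBP1, a GTP-binding protein, was at 1.70, while its other probe sets above the filter lay between -0.04 and 0.21. The genes next to the cluster, CBX6 (-0.61) and CBX7 (0.28), which encode Polycomb proteins, were within 2-fold.

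**Figure D3:**
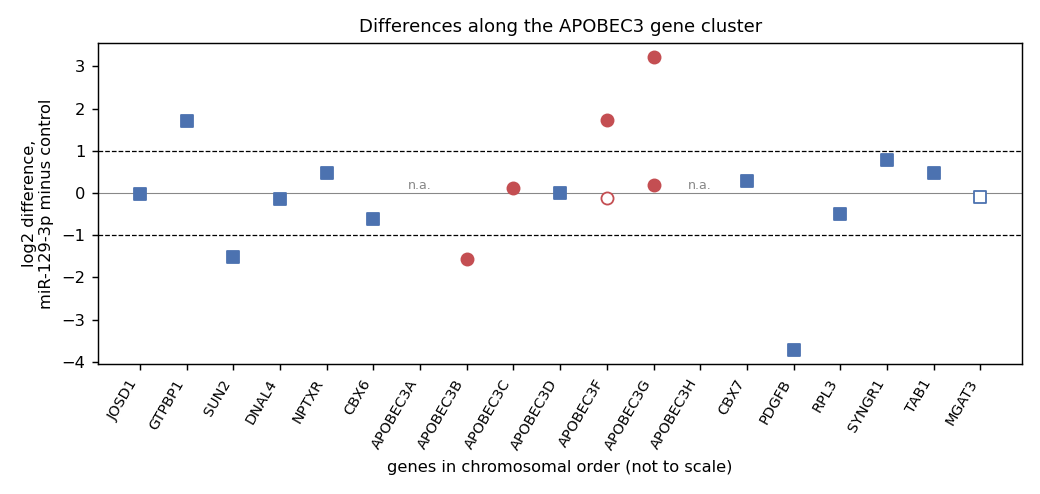
Log2 difference (miR-129-3p minus control) of genes in chromosomal order along the APOBEC3 cluster and its 6 protein-coding neighbours on each side; the spacing is not to scale. Red circles are every probe set of the 4 members and blue squares the brightest probe set of other genes, open where under the filter; n.a. marks genes not analysed here, and dashed lines mark 2-fold. APOBEC3B (-1.57) and PDGFB (-3.71) lie below the lower line.

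Lists were then read of other restriction factors, of genes known to act with or on these enzymes, and of other deaminases. Over all genes above the filter, 7.83% were at least 2-fold higher and 4.56% lower. Those shares belong beside every list count below. Of 21 other genes that restrict retroviruses or retrotransposons, 19 were above the filter, 11 were at least 2-fold higher and 1 was lower, with a median of 2.01. Within this list SAMHD1, which depletes nucleotides needed for reverse transcription, read 436 and 6815, a difference of 3.92, with its 5 other probe sets between 2.79 and 3.91. MOV10, an RNA helicase that binds APOBEC3G, had differences of 2.01 and 0.80 on its probe sets. TRIM5 (1.44), TRIM22 (2.14), IFI16 (2.98), IFITM3 (2.12) and IFITM2 (2.59) were higher from control signals above the filter. Another 4 had control signals under 100, and taking 100 in their place GBP5 was at least 2.20-fold, MX2 at least 34.9-fold, BST2 at least 47.6-fold and IFITM1 at least 154-fold higher. With such signals set to 100 the median of the list was 1.44. The lower member was SERINC5, a membrane protein that lowers virion infectivity, at -1.43.

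Of the genes between the interferon receptor and the factor ISGF3, 5 of 7 were above the filter and 1 of these was higher, IRF9, the DNA-binding part of ISGF3 (1038 against 3956, difference 1.91). The remaining 2 were not analysed here. Transcription of APOBEC3B is known to involve the DREAM, MuvB and E2F factors. Among those, 18 of 20 were above the filter, with a median of -0.12. Of the 18, 1 was higher and 1 lower, against 7.83% and 4.56% of all genes above the filter. The lower one was FOXM1, an activator of mitotic genes, at -1.37 (599 against 223). The higher one was E2F7, a repressor of the E2F family, at 1.35, with its other probe set at 0.26. MYBL2, a partner of MuvB that was named after its values were seen, was at -0.96 (332 against 163), just short of the 2-fold limit on this scale. E2F6, also named after its values were seen, was short of the limit in the other direction, at 0.93 (528 against 1022). Of the 8 genes for NF-kappaB and protein kinase C, which also act on APOBEC3B, 0 were higher and 1 was lower, PRKCA at -1.06, with its other probe sets above the filter between 0.09 and 0.29. RELB and NFKB2, the non-canonical NF-kappaB subunits, were at 0.29 and 0.04, and were named after their values were seen.

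Downstream of the deaminases, uracil in DNA is removed by glycosylases and base excision repair. All 17 members of that list with a probe set were above the filter and 0 were past 2-fold in either direction, with differences from -0.84 (FEN1, a flap endonuclease) to 0.59 (MBD4, a glycosylase whose other probe sets lay between -0.92 and 0.38) and a median of -0.16. UNG, the main uracil glycosylase, read 1202 and 1016, and was named after its values were seen. HIV Vif brings APOBEC3 proteins to a cullin ligase, whose 7 host components ran from -0.65 (ELOB) to 0.26 (CUL5, with other probe sets from -0.48 to 0.14). APOBEC3G is found in P bodies, and of 16 genes for such particles 2 were higher, against 7.83% of all genes above the filter. These were PATL1, a decapping scaffold (1.79, with other probe sets from -0.25 to 1.41), and XRN1, an RNA exonuclease (1.47, with others from 1.33 to 1.55). Of 6 RNA adenosine deaminases, 5 were above the filter, with 1 higher and a median of -0.12. The higher one was ADAR, which edits adenosine in double-stranded RNA, at 1.29 (3316 against 8160). ADARB1, named after its values were seen, was at -0.93 (245 against 121), with another probe set at -0.002. Of 9 deaminases of free nucleosides, nucleotides and bases, 5 were above the filter, 3 with a positive and 2 with a negative difference. The median was 0.88, and 2 were at least 2-fold higher. These were the AMP deaminases AMPD2 (1.33) and AMPD3 (1.12), each on 1 probe set above the filter.

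**Figure D4:**
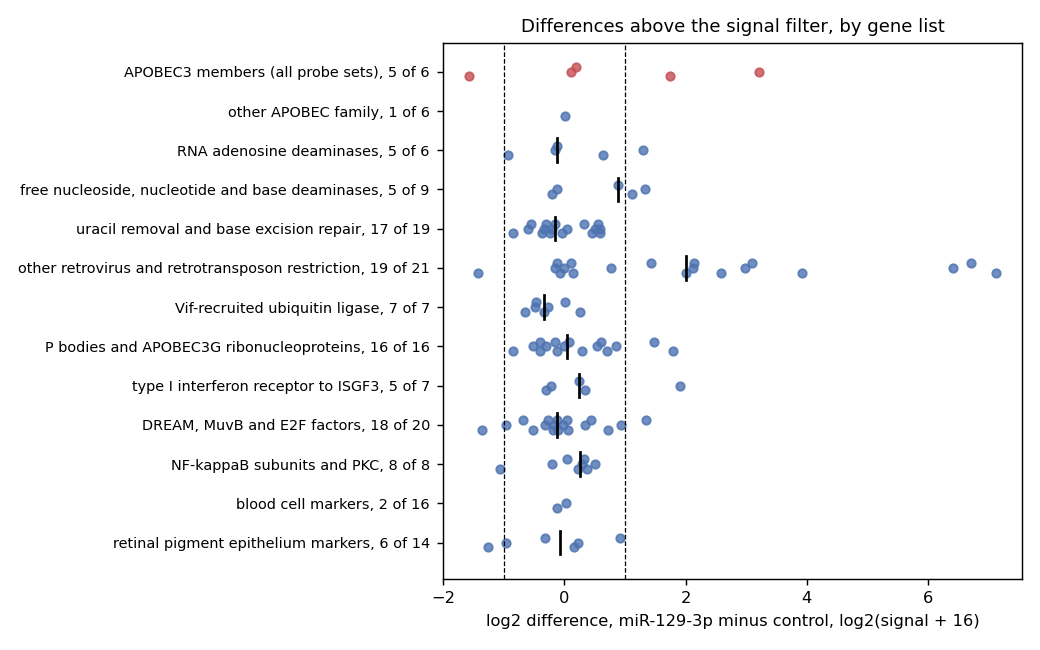
Log2 difference (miR-129-3p minus control) of the APOBEC3 probe sets above the filter (red) and of the brightest probe set of each gene above the filter in the lists (blue), with the list and the number above the filter of those listed at the left. Black bars are list medians, given for lists with at least 3 genes; dashed lines mark 2-fold. The APOBEC3 points run from -1.57 to 3.22.

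APOBEC3 genes are abundant in blood cells, so blood cell markers were read beside them. Of 16 markers, 13 had a probe set and 2 were above the filter, HBB (162 in control, 149 with miR-129-3p) and CD79A (116 and 119). The summed signal of the 13 was 824 in control and 789 with miR-129-3p. It includes the markers under the filter, for which no call could be made. Of the 2 above the filter, 0 were at least 2-fold higher. The most positive difference of the 13 was that of CD14 (33.07 in control, 58.15 with miR-129-3p), and the most negative that of LYZ (27.89 and 13.57), all under the filter. Whether blood cells contributed to the APOBEC3 signals was not tested. PTPRC, the pan-leukocyte marker CD45, read 36.9 and 41.0.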

How the data were processed

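RNA of 2 cultures was hybridised to Affymetrix 3′ expression arrays from 100 ng of total RNA each, per the labels' protocols. The deposited intensities, 1 for each of 54613 probe sets on each array, are linear and run from 1 to 20822. The submitters' processing notes list MAS5 and RMA with no role for either; background correction, scaling, versions and detection calls are not given in the sources used here. The number of arrays limits the precision.

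Names came from the platform annotation (41091 probe sets with 1 symbol, 1801 with several, 11721 not listed), and 41037 of the 41091 were updated by gene ID. No probe set with several symbols was assigned to a gene. Levels are log2(value + 16), a gene is its probe set of highest mean log2 level, and probe sets need a signal of 100 on the higher array to be counted. With 1 array per group no test was made. Named genes were every probe set of the members, list members past 2-fold or otherwise those at both ends of a list, and the 3 genes nearest each member. One further listed gene is not reported here. Members, lists and rules were chosen with earlier results of these data known. RefSeq tables (GRCh38.p14) gave the miRNA sequences and the gene order. Alternatives were added constants of 1 and 64, median centring, quantile normalization, a loess trend, a floor of 100, means over probe sets, other filters, other fold limits and other choices of probe set. Code was tested on simulated data. Tables were handled in Python 3.11.15 (pandas 2.3.3, numpy 2.4.6), loess used statsmodels 0.14.6, and plots used matplotlib 3.10.9.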

Additional observations from a re-analysis of the deposited data

Results flagged for a closer look

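A signal also appeared in data that the comparisons above leave out. Of 2 probe sets whose annotation lists more than one APOBEC3 gene, and which were therefore counted for none, 1 was under the filter in control (77.3) and above it with miR-129-3p (272). Its log2 difference was 1.63. The annotation gives this probe set the same source transcript as the brighter APOBEC3F probe set, so the 2 are not independent readings. The other one read 19.4 and 19.3.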

How the results depend on the processing

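No alternative gave the opposite sign for a member past 2-fold. A value is said to hold where it moved by less than the SD of 0.37 between probe sets of a gene, and a count where it stayed within 1.5 times; by that measure 81 of 92 recomputed values held. The APOBEC3B difference ran from -1.66 to -1.42 over 8 alternatives and that of APOBEC3C from 0.08 to 0.12. Each has a single probe set with both signals above 100. The floor of 100, the mean over probe sets and the highest-signal choice therefore could not move them, though these values are among those that held. The mean of all probe sets gave 0.81 for APOBEC3F and 1.71 for APOBEC3G. The highest signal on either array as the choice of probe set, added after the data were seen, gave 3.22 for APOBEC3G. It gave 2 members at least 2-fold higher, against 8.08% of genes above the filter. The dimmer APOBEC3G probe set was at 4.35 with an added constant of 1, at 1.98 with 64 and at 1.07 with signals under 100 set to 100, since its control signal is low. At a 3-fold limit 0 member genes and 0 member probe sets were lower, because APOBEC3B lies just inside that limit on the log2(signal + 16) scale. Over everything above the filter, 1.73% of genes and 1.76% of probe sets were lower at that limit. Without probe sets ending in _x_at or _s_at, APOBEC3B and APOBEC3C have no value and 0 member genes were lower, against 4.82% of all genes. With a mean signal of 200 or more, 1 member probe set was at least 2-fold higher, since the dimmer APOBEC3G probe set is lost. The share of all probe sets higher with that filter was 8.13%. The remaining limit is 1 array per group.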
